A study of Mus musculus with 9 samples.

Results

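Replication-dependent histone genes supply the core histones H2A, H2B, H3 and H4 and the linker histone H1 that package newly copied DNA. Here they were taken as the genes of the deposited expression table whose symbol starts with Hist1h, Hist2h, Hist3h or Hist4h, without those marked as pseudogenes by -ps. The rule gave 68 of 53715 genes: 6 of class H1, 19 of H2A, 18 of H2B, 12 of H3 and 13 of H4. RNA had been sequenced from mouse primary myoblasts, the precursor cells of skeletal muscle fibres, at passage 1. All cells came from the strain C57BL/10ScSn-Dmdmdx/J, known as mdx, in which the dystrophin gene is mutated, so both groups share that defect. Cells kept in 0.2 mM glycine gave 3 libraries and cells kept in 0.8 mM glycine gave 6, and the comparison asks how expression differs between the glycine levels. Separate cultures or animals are not named in the labels, and p-values therefore measure only the spread between these libraries, which may be technical. Each glycine level also has its own library series in the labels (Lib1 and Lib2), and a batch along that line cannot be told apart from glycine.

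Most of these genes have no introns and lie in clusters, and they are transcribed when DNA is copied. Their messenger RNAs are the known exception to polyadenylation: they end just after a short stem and loop in the 3′ untranslated region, which is bound by the stem-loop-binding protein encoded by Slbp and cut with the help of the U7 small nuclear ribonucleoprotein. When DNA synthesis stops, the hairpin-ended messages are rapidly degraded. Some of the genes can also give longer polyadenylated transcripts that run past the hairpin, a form known from differentiating and non-dividing cells. Whether polyadenylated RNA was selected for these libraries is not given in the sources used here.

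In the GENCODE M21 annotation (GRCm38.p6, the assembly that mm10 denotes) 55 of the 68 members lie on chromosome 13, 10 on chromosome 3, 2 on chromosome 11 and 1 on chromosome 6. A hairpin with a stem of 6 base pairs that starts with GG, a perfect match between its arms and a loop of 4 bases that starts with TTT was found in annotated transcripts of 44 members. Among the 54 members with an annotated 3′ untranslated region, 44 had it, and none of the 14 without one did. Over the 21951 protein-coding genes of the annotation, 72 held such a hairpin in any transcript (0.328%), and 28 of those were not members. The hairpins of the members on which the results below turn are shown here 5′ to 3′ on the gene's own strand, with stem and loop in capitals and up to 5 flanking bases on each side.
Hist1h2ap: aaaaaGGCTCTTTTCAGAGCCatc
Hist1h2ab: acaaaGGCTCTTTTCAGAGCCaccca
Hist1h2ae: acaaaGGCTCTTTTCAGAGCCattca
Hist3h2a: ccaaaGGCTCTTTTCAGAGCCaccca
Hist1h1c: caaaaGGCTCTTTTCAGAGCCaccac
Hist1h3b: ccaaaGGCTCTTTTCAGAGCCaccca
Hist1h3c: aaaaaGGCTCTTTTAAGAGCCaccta
Hist1h3d: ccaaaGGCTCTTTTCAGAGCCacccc
Hist2h3c2: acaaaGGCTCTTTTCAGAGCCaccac
Hist1h4i: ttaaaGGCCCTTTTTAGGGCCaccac
Hist1h4h: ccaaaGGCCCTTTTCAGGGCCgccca
The form of Hist1h2ap was shared by 26 members of classes H1, H2A, H2B and H3. The form of Hist1h4h was found in 7 members, all of class H4, and that of Hist1h4i in 2, the other being Hist2h4. The same core therefore occurred in genes that rose (Hist1h2ap, Hist1h3b) and in genes that fell (Hist1h1c, Hist3h2a).

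Values were TPM, a measure of transcript abundance that relates reads to gene length and sums to 1000000 in each library, and the read depth behind them is unknown. The test was limma's moderated linear model on log2(TPM + 1) over genes with at least 1 TPM in at least 3 libraries. The threshold was an adjusted p (Benjamini-Hochberg) of 0.05 over the 10049 genes tested. Differences are 0.8 mM minus 0.2 mM, "rose" and "fell" describe genes that passed in that direction, and the added 1 makes the log2 difference of a low gene smaller than its ratio of TPM. Values of 0 are given as listed.

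Of the 68 members, 30 entered the test, and 11 of them were higher and 4 lower at 0.8 mM glycine, while 15 did not pass. Over all genes tested, 16.7% were called higher and 9.81% lower. The median log2 difference was 0.65 over the 30 members and 0.06 over all genes. A filter on level lets in genes that are high in 1 group: Hist1h1a, Hist1h2af, Hist1h2ai and Hist1h3d reached 1 TPM only in libraries at 0.8 mM, and among the other 26 the counts were 9 higher and 4 lower. The median of 0.65 includes these 4, with differences of 0.97, 0.87, 1.12 and 0.67. The groups did not overlap for 10 members that were above and 4 that were below in every 0.8 mM library, where 17.6% and 10.6% of all genes tested did so. Hist1h1a and Hist1h3d are among the 10. With median-ratio scaling the calls over all genes were 1414 higher and 1275 lower, and with quantile normalization 1324 and 1335, against 1683 and 986 as deposited. The members' counts were 11 and 4 under each of these scalings.

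**Figure D1:**
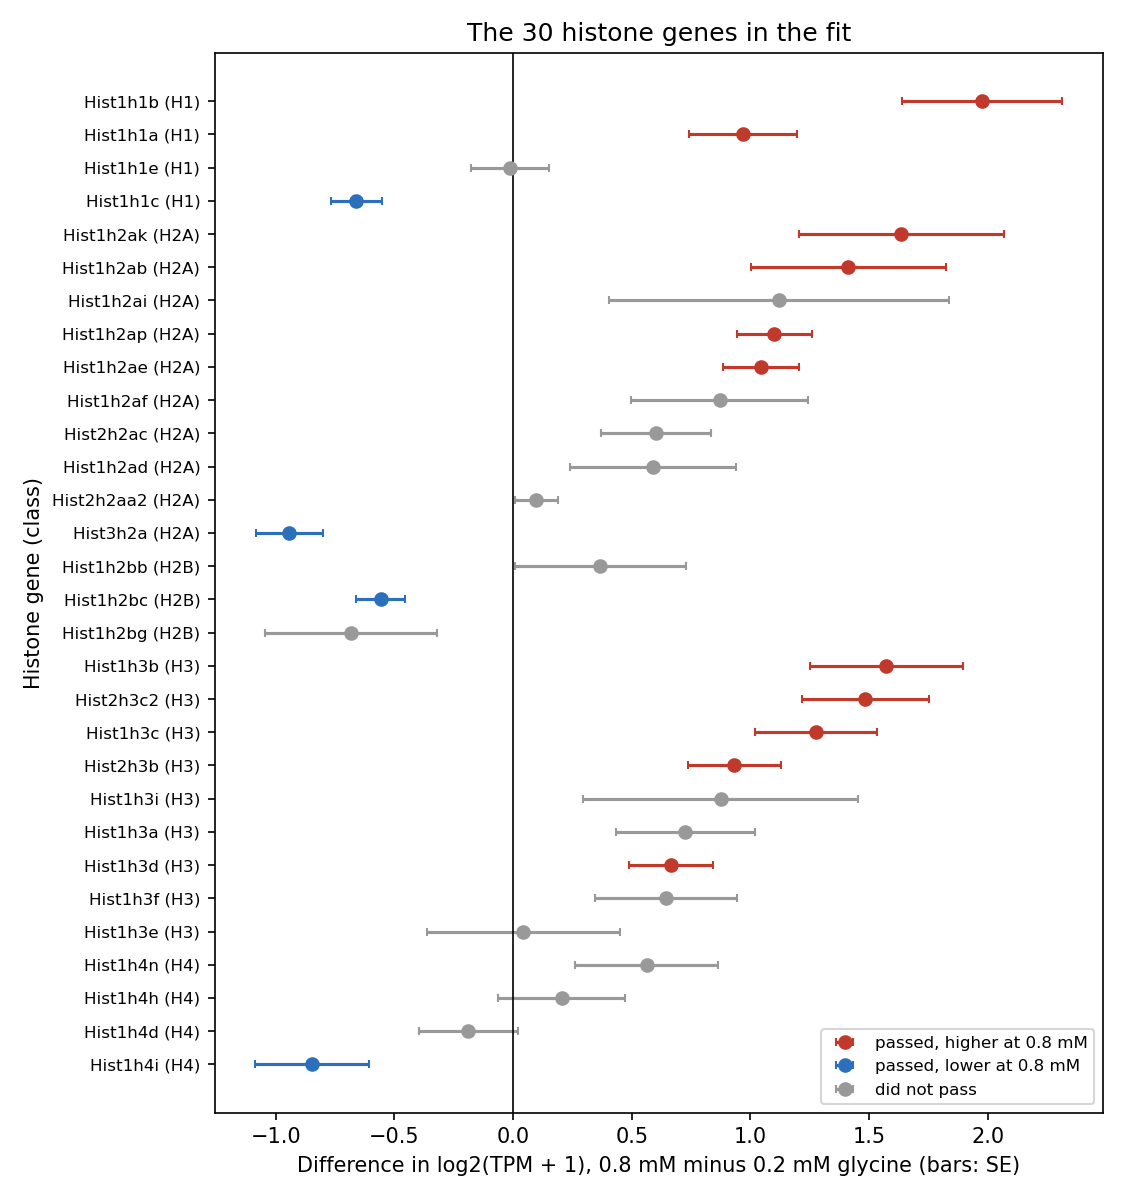
Difference in log2(TPM + 1), 0.8 mM minus 0.2 mM glycine, for the 30 histone genes tested, ordered by class, with the SE as horizontal bars. The 11 genes that passed upward are red and come from H1, H2A and H3, the 4 that passed downward are blue and come from H1, H2A, H2B and H4, and 15 are grey.

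Marker genes of several cell types were set beside the histone genes in the same libraries. For their counts, the shares over all genes tested were 16.7% higher and 9.81% lower. The myoblast markers were present, with a sum over 6 genes of 148 to 188 TPM at 0.2 mM and 411 to 501 TPM at 0.8 mM, and 5 of the 6 rose. Of 10 listed genes of differentiating muscle, 8 were found by symbol among the deposited values. All 8 rose, with sums of 2308 to 2751 and 7745 to 9402 TPM. Of the other cell types, 4 of 6 fibroblast markers, 3 tested endothelial markers, 2 of 2 tested smooth muscle markers and 2 of 6 macrophage markers rose, and 1 macrophage marker and the 1 tested Schwann cell marker fell. Of the endothelial markers, Pecam1 and Cdh5 reached 1 TPM only at 0.8 mM and so passed the filter through that group alone, and Kdr and Tek, which overlapped between the groups, were not tested. The Schwann cell marker reached 1 TPM only at 0.2 mM, and Pax7 of the myoblast list only at 0.8 mM. The summed levels of the other cell types' markers at 0.2 and 0.8 mM were 1847 to 2230 and 1625 to 2142 TPM for fibroblasts, 4.04 to 4.67 and 8.96 to 12.1 TPM for endothelium and 391 to 437 and 1200 to 1433 TPM for smooth muscle. They were 783 to 856 and 971 to 1353 TPM for macrophages and 2.78 to 4.43 and 0.714 to 4.63 TPM for Schwann cells. The adipocyte markers stayed at or under 0.366 TPM with Lep listed at 0 in all libraries, and the smooth muscle markers Myh11 and Cnn1 at or under 0.178 TPM. Annotated ribosomal RNA genes held 20.05 to 23.4% of all TPM at 0.2 mM and 17.5 to 21.2% at 0.8 mM. The part of these shifts in the histone differences was not tested, beyond the count of 11 and 4 with ribosomal RNA genes left out, and in such bulk libraries a change in the number of cells of a type cannot be told apart from a change in RNA per cell.

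Among the linker histones, which bind the DNA between nucleosomes, Hist1h1b and Hist1h1a rose, Hist1h1c fell and Hist1h1e did not pass. Hist1h1b (H1.5, chr13:21779883-21780625, a single exon on the minus strand) was at 1.68, 2.61 and 0.262 TPM at 0.2 mM, and its lowest, median and highest values at 0.8 mM were 4.24, 9.41 and 10.7 TPM. Every library at 0.8 mM was above every library at 0.2 mM. The log2 difference was 1.98 ± 0.34 (SE, limma adjusted p = 0.0013), the largest among the 30 members tested, and none of the 50-base windows of its transcripts occurs in another annotated gene. Hist1h1a (H1.1, chr13:23763666-23764406) was at 0.241, 0.292 and 0 TPM and at 0.865, 0.995 and 2.27 TPM, again with no overlap, and rose by 0.97 ± 0.23 (SE, limma adjusted p = 0.0091). It too shares no window with another gene, but its level was close to the filter. Hist1h1a reached 1 TPM only in 0.8 mM replicates 1, 3 and 4 (1.01, 2.27 and 2.16 TPM), so it left the test without any of these. It was tested in 15 of the 22 alternatives and passed in those.

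Hist1h1c (H1.2, chr13:23738808-23740367) was the most abundant linker histone gene. It stood at 26.9, 27.8 and 26.2 TPM at 0.2 mM and between 13.6 and 18.6 TPM, with a median of 17.5 TPM, at 0.8 mM. The 3 libraries at 0.2 mM lay within 2 TPM of each other and above all 6 at 0.8 mM. The gene fell by 0.66 ± 0.11 on the log2 scale (SE, limma adjusted p = 0.00086). Hist1h1e (H1.4) was at 15.7, 15.1 and 9.26 TPM and at 10.5, 13.2 and 14.6 TPM, so the groups overlapped (log2 difference -0.01 ± 0.16, SE, limma adjusted p = 0.962). Its annotated exon overlaps Hist1h2be, with which it shares 23.8% of its windows. Hist1h1d, at 0.105 to 0.475 TPM, and the testis gene Hist1h1t, listed at 0 in all libraries, were not tested.

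The makeup of the H1 class shifted between its members while its sum did not separate the groups. Summed H1 was 42.2 ± 5.52 TPM (SD, n = 3) at 0.2 mM and 39.9 ± 4.40 TPM (SD, n = 6) at 0.8 mM. Hist1h1c made up 64.5 ± 7.47% of it at 0.2 mM and 42.3 ± 4.82% at 0.8 mM. Hist1h1b made up 3.39 ± 2.50% and 20.7 ± 4.69%. Neither share overlapped between the groups, while the share of Hist1h1e did, at 31.2 ± 4.77% and 32.6 ± 3.33%.

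**Figure D2:**
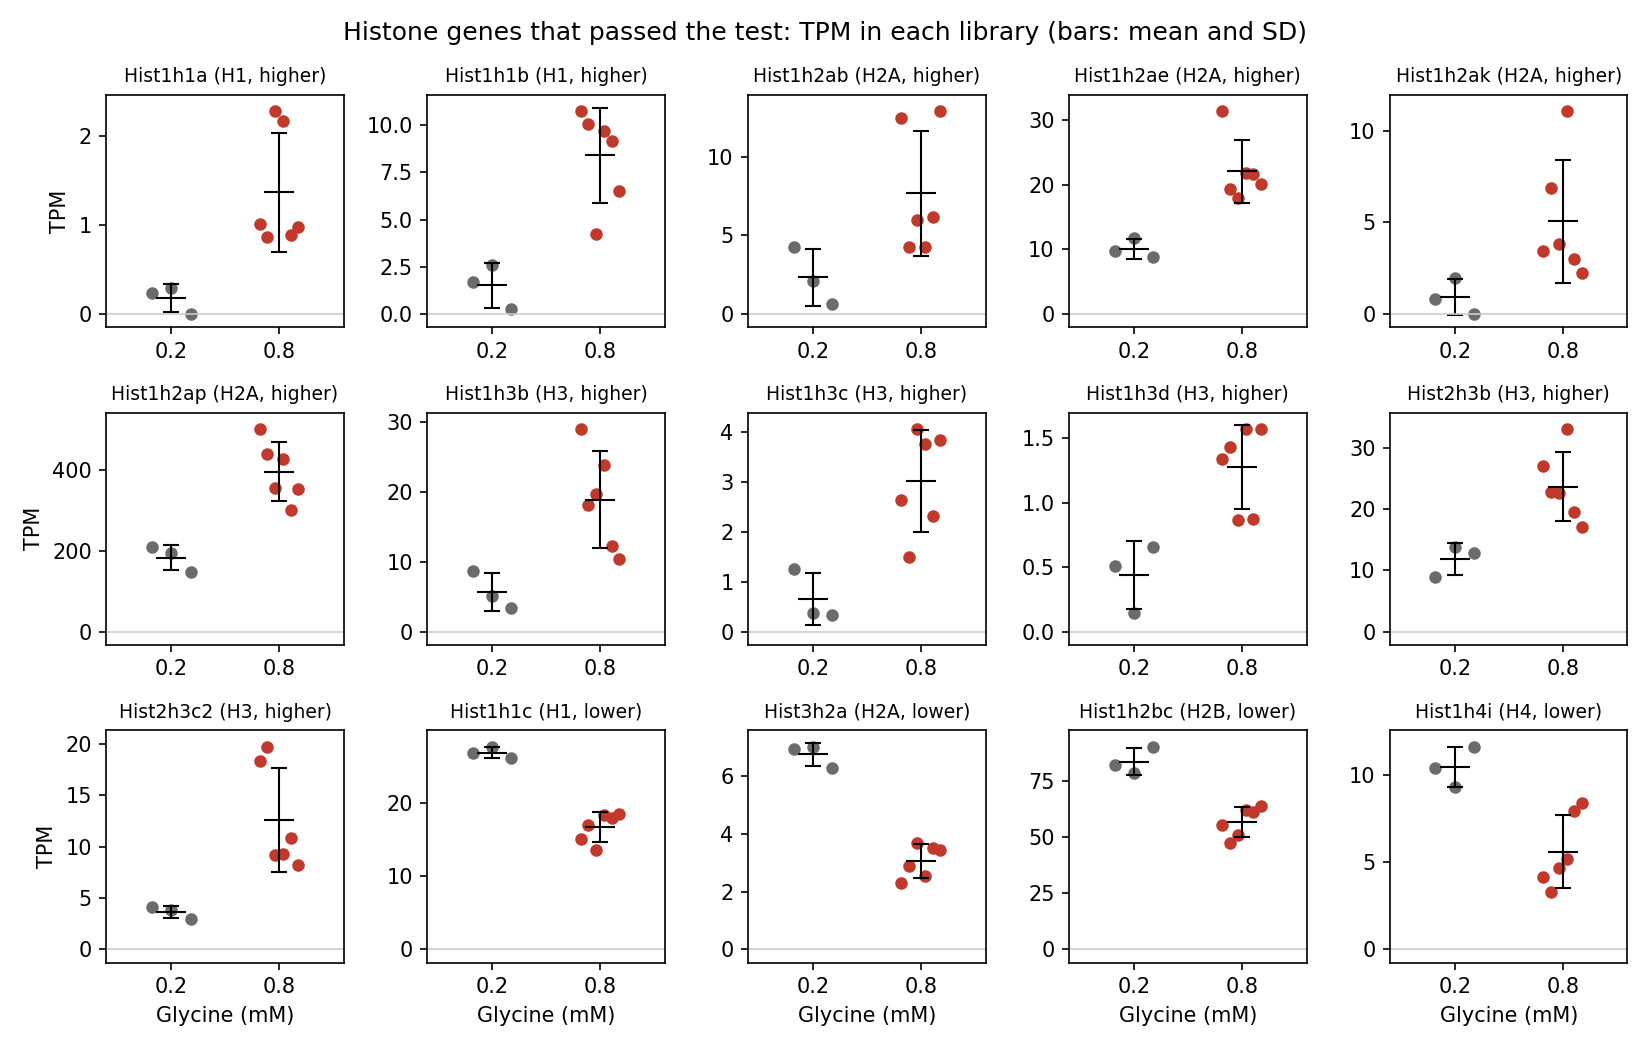
TPM of the 15 histone genes that passed the test, 1 panel per gene, with grey points for the 3 libraries at 0.2 mM, red points for the 6 at 0.8 mM glycine, and black bars for the mean and SD, on linear axes. The groups separate in 14 panels, as for Hist1h1b and Hist1h1c, and meet for Hist1h2ab at 4.24 TPM.

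In class H2A, 4 members rose, 1 fell and 5 did not pass. Hist1h2ap (chr13:21833026-21833507, minus strand) had the highest TPM of all members, at 208, 194 and 147 TPM at 0.2 mM and at 300.2, 390.04 and 500.3 TPM as lowest, median and highest at 0.8 mM. Every library at 0.8 mM was above every library at 0.2 mM, and the gene rose by 1.10 ± 0.16 (SE, limma adjusted p = 0.00039). Of its windows 93.1% also occur in Hist1h2ao, which is listed at 0 in all libraries, so the value may hold reads of both. Hist1h2ae (chr13:23570517-23571220) was at 9.73, 11.7 and 8.78 TPM and at 17.9, 20.9 and 31.4 TPM, with no overlap, and rose by 1.05 ± 0.16 (SE, limma adjusted p = 0.00062). It shares 43.2% of its windows with other genes, most of them with Hist1h2ad.

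Hist1h2ak (chr13:21753435-21753827) was at 0.807, 1.96 and 0 TPM at 0.2 mM and at 2.22, 3.61 and 11.1 TPM at 0.8 mM. The groups did not overlap, and the log2 difference was 1.64 ± 0.43 (SE, limma adjusted p = 0.017), but without 0.2 mM replicate 3 it was 1.23 with an adjusted p of 0.0847. Hist1h2ab (chr13:23751126-23751598) was at 4.24, 2.09 and 0.666 TPM and at 4.24, 6.07 and 12.9 TPM. Here the groups met at 4.24 TPM, and the rise of 1.41 ± 0.41 (SE, limma adjusted p = 0.0269) was lost without 0.2 mM replicate 2 (0.0723) or 0.2 mM replicate 3 (0.125). Both calls were also lost with no filter on level (0.0797 for Hist1h2ab and 0.0553 for Hist1h2ak).

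Hist3h2a (chr11:58954685-58956830), which lies outside the large clusters, moved the other way. It was at 6.95, 7.02 and 6.27 TPM at 0.2 mM and at 2.30, 3.17 and 3.68 TPM at 0.8 mM. All 6 libraries at 0.8 mM were below all 3 at 0.2 mM, and the gene fell by 0.94 ± 0.14 on the log2 scale (SE, limma adjusted p = 0.00052). Its exon shares bases and 31.5% of its windows with Trim17 on the same strand, so reads of the pair may be split between them.

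Hist2h2aa2 (chr3:96245497-96246082) was the second member by level and did not pass. It was at 91.2, 83.0 and 95.3 TPM and at 79.0, 99.1 and 105 TPM, and the groups overlapped (log2 difference 0.10 ± 0.09, SE, limma adjusted p = 0.474). The annotation gives this gene the symbol that the deposited table gives to its neighbour Hist2h2aa1, and 89.4% of its windows occur in the overlapping gene Gm20634. Hist2h2ac was at 15.6, 11.3 and 10.2 TPM and at 14.98, 16.6 and 30.9 TPM (log2 difference 0.60 ± 0.23, SE, limma adjusted p = 0.0805). Hist1h2ad, Hist1h2af and Hist1h2ai had differences of 0.59, 0.87 and 1.12 with adjusted p of 0.254, 0.115 and 0.287. The difference of Hist1h2ad was 0.25 without 0.2 mM replicate 3. Hist1h2af passed without 0.8 mM replicate 3 (0.0473) or 6 (0.0455), the libraries at 0.8 mM where it is listed at 0. It reached 1 TPM only in 0.8 mM replicates 1, 2 and 4, so it left the test without any of these. Hist1h2af and Hist1h2ai are listed at 0 in all 3 libraries at 0.2 mM. At 0.8 mM Hist1h2af ranged from 0 to 2.44 TPM with a median of 1.13 TPM, and Hist1h2ai from 0 to 10.2 TPM with a median of 0.557 TPM. Outside the test, Hist1h2ag, Hist1h2ah, Hist1h2an and the annotated pseudogene Hist1h2aj reached 1 TPM in some library, with highest values of 2.33, 1.03, 2.42 and 1.47 TPM, and Hist1h2aj did so only at 0.2 mM.

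Of 18 H2B members only 3 were tested, and 1 fell and 0 rose. Hist1h2bc (chr13:23684199-23692908), annotated with 2 exons, made up 94.2 ± 1.02% of summed H2B TPM at 0.2 mM and 91.5 ± 2.41% at 0.8 mM. It was at 81.8, 78.3 and 90.1 TPM and at 47.1, 58.0 and 63.9 TPM, with all libraries at 0.8 mM below those at 0.2 mM. It fell by 0.56 ± 0.10 on the log2 scale (SE, limma adjusted p = 0.0022). Hist1h2bg was at 3.47, 2.55 and 2.28 TPM and at 0, 1.59 and 2.65 TPM (log2 difference -0.68 ± 0.36, SE, limma adjusted p = 0.201). Hist1h2bb was at 0.466, 1.13 and 0 TPM and at 0, 0.855 and 1.96 TPM (0.37 ± 0.36, SE, limma adjusted p = 0.511). Both overlapped between groups. Outside the test, Hist1h2bf, Hist1h2bp, Hist1h2bq and Hist2h2bb reached at most 1.14, 1.32, 1.09 and 1.34 TPM in any library.

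In class H3, 5 of 9 tested members rose and none fell. Hist1h3b (chr13:23752267-23752886) was at 8.70, 5.07 and 3.34 TPM at 0.2 mM and at 10.5, 18.9 and 29.0 TPM at 0.8 mM. The groups were apart, with a rise of 1.57 ± 0.32 (SE, limma adjusted p = 0.0041). Hist2h3c2 (chr3:96238108-96239127) was at 4.14, 3.80 and 2.95 TPM and at 8.18, 10.1 and 19.7 TPM, and rose by 1.48 ± 0.27 (SE, limma adjusted p = 0.0019). Hist2h3b (chr3:96268654-96269141) was at 8.94, 13.8 and 12.8 TPM and at 17.1, 22.7 and 33.1 TPM, and rose by 0.93 ± 0.20 (SE, limma adjusted p = 0.0046). Both chromosome 3 genes separated the groups, and they share 63.5% and 79.7% of their windows with Gm20634.

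Hist1h3c (chr13:23744973-23745602) was lower in level, at 1.25, 0.380 and 0.342 TPM and at 1.51, 3.20 and 4.06 TPM, and rose by 1.28 ± 0.26 (SE, limma adjusted p = 0.0036). Hist1h3d (chr13:23575763-23577011) was at 0.513, 0.145 and 0.658 TPM and at 0.867, 1.39 and 1.57 TPM, and rose by 0.67 ± 0.18 (SE, limma adjusted p = 0.0184). Neither overlapped between groups, and Hist1h3d lost its call without 0.2 mM replicate 2 (0.0954). Hist1h3a, Hist1h3f, Hist1h3i and Hist1h3e did not pass, with log2 differences of 0.72, 0.64, 0.88 and 0.04 and limma adjusted p of 0.0949, 0.146, 0.306 and 0.951. Of these, Hist1h3a passed without 0.8 mM replicate 5 (0.0258), and Hist1h3f passed without 0.8 mM replicate 6 (0.0039), where it was at 1.42 TPM against 3.91 to 5.89 TPM in the other 5. Hist1h3g was not tested and reached at most 2.44 TPM.

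Class H4 had 4 tested members, of which 1 fell and 0 rose. Hist1h4i (chr13:22040636-22041362) was at 10.4, 9.31 and 11.6 TPM at 0.2 mM and at 3.27, 4.94 and 8.41 TPM at 0.8 mM. All libraries at 0.8 mM were below those at 0.2 mM, and the log2 difference was -0.85 ± 0.24 (SE, limma adjusted p = 0.0231). Leaving out 0.2 mM replicate 1 ended the call (0.0672), as did leaving out 0.2 mM replicate 3 (0.0852) or the filter (0.0651). Hist1h4h was at 5.45, 7.94 and 7.70 TPM and at 3.83, 9.11 and 11.2 TPM, Hist1h4n at 2.64, 4.00 and 6.45 TPM and at 3.19, 7.16 and 9.30 TPM. Hist1h4d was at 2.23, 2.07 and 2.15 TPM and at 0.807, 1.82 and 2.97 TPM. All 3 overlapped between the groups (limma adjusted p = 0.630, 0.204 and 0.561), although Hist1h4n passed without 0.8 mM replicate 2 (0.049), and shares 83.2% of its windows with Hist1h4m. Hist1h4f and Hist2h4 were not tested, with highest values of 2.88 and 1.17 TPM.

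In all, 27 members stayed below 1 TPM in every library. Of these 11 are listed at 0 throughout, and the other 16 reached at most 0.904 TPM. Among all 68 members, 33 share over 50% of their windows with another gene, and reads of such copies may have been split or moved between genes by the authors' counting. Of the 30 tested members, 13 share over 50%. Among the other tested members, 5 of the rises (Hist1h1a, Hist1h1b, Hist1h2ae, Hist1h3c and Hist1h3d) and all 4 of the falls are left. The shares over all genes tested were 16.7% higher and 9.81% lower. Of these 5 rises, Hist1h1a and Hist1h3d reached 1 TPM only at 0.8 mM. The strand setting is not given in the sources used here, and 25 members share an exon base with another gene.

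Members that fell had long annotated 3′ ends. In the annotated models of the 4 genes that fell, the transcript runs 330 bases past the hairpin in Hist1h4i, 840 in Hist1h1c and 1643 in Hist3h2a, and Hist1h2bc has a 3′ untranslated region of 742 bases without the hairpin. In the 7 genes that rose and have an annotated hairpin, the run past it was 3 bases in Hist1h2ap, 11 in Hist1h2ab, 51 in Hist1h3b, 74 in Hist1h3c, 151 in Hist1h2ae, 377 in Hist2h3c2 and 752 in Hist1h3d. The other 4 that rose (Hist1h1a, Hist1h1b, Hist1h2ak and Hist2h3b) have none in their models, which end at or shortly after the stop codon. In the 12 members with a hairpin that did not pass, the run was 23 to 1153 bases with a median of 51.5. The ranges overlap: Hist1h3d rose with 752 bases, Hist1h1e did not pass with 1153, and Hist1h4d did not pass with 770. These are lengths of gene models, not of the transcripts in these cells, the pattern was noticed after the values were seen, and no test was made of it.

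**Figure D3:**
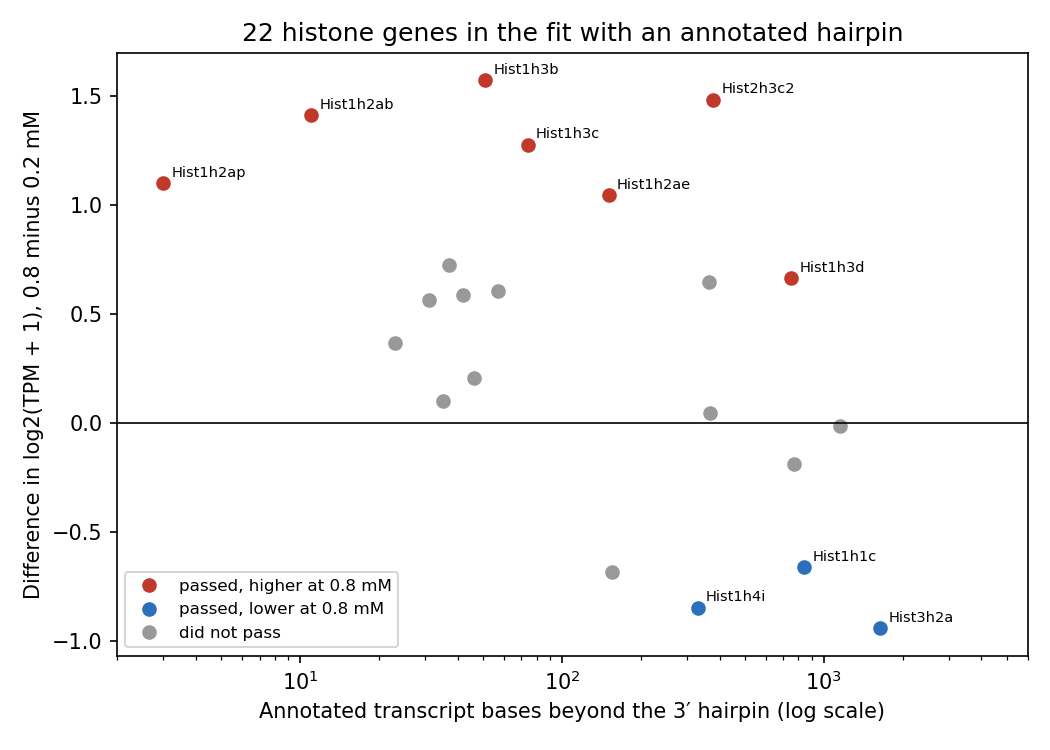
Difference in log2(TPM + 1), 0.8 mM minus 0.2 mM glycine, against the annotated transcript bases beyond the hairpin (log scale) for the 22 tested members that have one. The 3 genes that passed downward (blue) lie at 330, 840 and 1643 bases, and the 7 that passed upward (red) lie between 3 and 752 bases.

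The summed level of all 68 members was 491 ± 33.7 TPM (SD, n = 3) at 0.2 mM and 753 ± 101 TPM (SD, n = 6) at 0.8 mM, a ratio of 1.53. The libraries at 0.2 mM ranged from 457 to 524 TPM and those at 0.8 mM from 645 to 888 TPM. The classes did not follow the sum alike. H2A went from 307 ± 34.4 to 556 ± 87.2 TPM, of which Hist1h2ap made up 59.3 ± 4.25% and 70.9 ± 3.16%, and H3 went from 27.4 ± 2.82 to 70.6 ± 17.3 TPM, a ratio of 2.57. H2B went from 88.5 ± 6.20 to 61.8 ± 6.93 TPM, a ratio of 0.698. None of these 3 classes overlapped between the groups, whereas H4, at 25.8 ± 4.45 and 24.8 ± 3.89 TPM, and H1 did. No test was made of the sums, each of which rests on 1 to 3 abundant members.

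**Figure D4:**
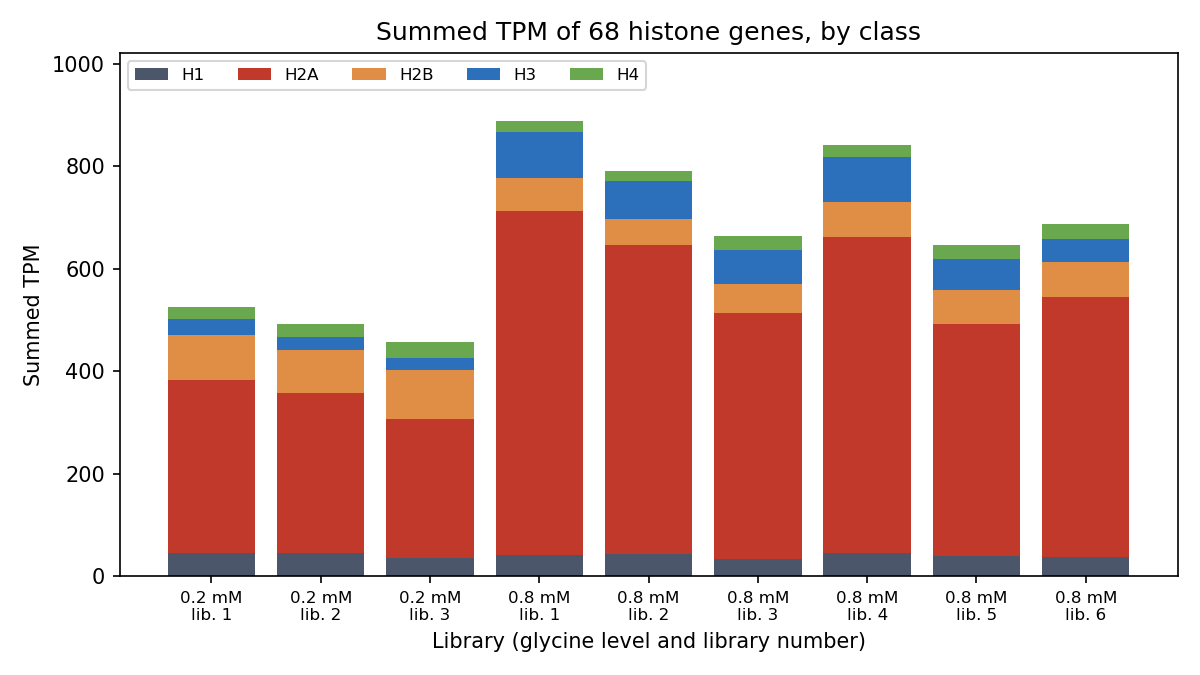
Summed TPM of the 68 histone genes in each library, stacked by class, on an axis from 0. H2A is the largest class in every library, the total is 457 to 524 TPM in the 3 libraries at 0.2 mM and 645 to 888 TPM in the 6 at 0.8 mM, and the H2B segment is smaller at 0.8 mM.

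The promoters of Hist1h1b and Hist1h1c were set side by side, since both genes belong to 1 class and moved in opposite directions. RefSeq promoters of 300 bases (250 before and 50 after the start, GRCm38.p6) were matched to 59 members. The motifs searched, on both strands, were CCAAT, the TATA forms TATAAA and TATATA (which can overlap each other), the H1 box AAACACA and the octamer ATTTGCAT. They are in capitals, merged where they overlap, in the promoters of Hist1h1b (chr13:21780576-21780875, minus strand) and Hist1h1c (chr13:23738557-23738856, plus strand).
Hist1h1b: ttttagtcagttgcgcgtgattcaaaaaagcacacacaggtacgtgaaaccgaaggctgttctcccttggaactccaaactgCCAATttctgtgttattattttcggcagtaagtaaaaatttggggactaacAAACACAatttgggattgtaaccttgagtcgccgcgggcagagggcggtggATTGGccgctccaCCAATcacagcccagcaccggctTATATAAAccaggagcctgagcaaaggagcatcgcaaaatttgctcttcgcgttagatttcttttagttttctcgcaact
Hist1h1c: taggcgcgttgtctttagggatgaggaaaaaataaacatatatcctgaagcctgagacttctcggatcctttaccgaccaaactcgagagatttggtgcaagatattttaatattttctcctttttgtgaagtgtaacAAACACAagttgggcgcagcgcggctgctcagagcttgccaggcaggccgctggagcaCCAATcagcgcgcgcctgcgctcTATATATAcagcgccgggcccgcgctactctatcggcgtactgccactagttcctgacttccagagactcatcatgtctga
Both hold the H1 box, CCAAT and TATATA, and Hist1h1b alone of the pair holds TATAAA. The H1 box was in 4 of 5 H1, 2 of 16 H2A and 2 of 16 H2B promoters and in none of H3 or H4, against 7.18% of the 32851 promoters of the table. CCAAT was in all 47 promoters of H1, H2A, H2B and H3 members and in 3 of 12 of H4, against 37.4% of the table. The octamer was in 7 of 16 H2A and 6 of 16 H2B promoters and in none of the other classes, against 1.74%. TATAAA was in 33 of the 59 and TATATA in 15, against 13.6% and 5.67%. A match of letters is a description and not a binding site.

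Many H2A and H2B genes lie head to head and share the sequence between their starts. The annotation has 13 such pairs with starts 176 to 306 bases apart, and 1 pair, Hist1h2ae with Hist1h2bg, had both genes in the test. The starts of this pair lie 176 bases apart. The stretch between them is shown within the 300-base promoter of Hist1h2ae (chr13:23571171-23571470, minus strand), which also runs into both transcripts at its ends.
Hist1h2ae: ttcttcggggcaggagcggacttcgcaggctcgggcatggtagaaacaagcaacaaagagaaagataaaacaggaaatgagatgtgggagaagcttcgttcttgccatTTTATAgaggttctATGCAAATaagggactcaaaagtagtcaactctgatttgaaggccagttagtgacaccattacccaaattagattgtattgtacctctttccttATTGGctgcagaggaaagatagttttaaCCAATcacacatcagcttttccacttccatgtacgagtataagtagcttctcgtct
This promoter holds CCAAT on both strands. TATAAA and the octamer, as the letters were searched, lie only on the opposite strand, which is that of Hist1h2bg. Hist1h2ae rose from 10.1 ± 1.51 to 22.1 ± 4.81 TPM (SD, n = 3 and 6), while Hist1h2bg, at 2.77 ± 0.624 and 1.53 ± 1.00 TPM, missed the threshold; whether the pair's differences differ was not tested. In 6 pairs 1 gene was tested, as for Hist1h2ap at 183 ± 31.8 and 395 ± 72.8 TPM beside Hist1h2br at 0.124 and 0.404 TPM on average. Hist1h2bc, at 83.4 ± 6.05 and 56.6 ± 6.73 TPM, stood beside Hist1h2ac at 0.0800 and 0.0830 TPM on average.

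For the lists below, the shares over all genes tested were 16.7% higher and 9.81% lower, and the median over all genes was 0.06. Of 17 tested genes of a list for histone message processing, 3 rose, 1 fell and 13 did not pass, with a median log2 difference of -0.16. Not all of the listed genes make 3′ ends: Npat acts in transcription, and Eri1 is also in the decay list. Slbp was at 8.84 ± 1.35 TPM at 0.2 mM and 9.14 ± 1.76 TPM at 0.8 mM (log2 difference 0.04 ± 0.15, SE, limma adjusted p = 0.894). Npat, the coactivator of histone transcription, was below the filter at 0.415 ± 0.139 and 0.546 ± 0.206 TPM. The 3 that rose were Snrpe and Snrpg, Sm proteins that the U7 particle shares with the splicing machinery, and Ncbp2 of the cap-binding complex. Snrpe went from 352 ± 23.2 to 496 ± 24.0 TPM, Snrpg from 442 ± 30.02 to 547 ± 40.3 TPM and Ncbp2 from 8.34 ± 2.71 to 15.1 ± 1.67 TPM. The calls of Snrpe and Snrpg were lost with quantile normalization (0.0734 and 0.896), and that of Snrpg also with median-ratio scaling (0.0665). Snrpb, another Sm protein, fell from 96.4 ± 8.69 to 74.3 ± 7.17 TPM, a call lost without 0.2 mM replicate 3 (0.0615).

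Of 13 tested genes of histone message decay, 1 rose, 0 fell and 12 did not pass (median -0.07). Lsm6, part of the Lsm ring that binds RNA 3′ ends, rose from 8.14 ± 1.88 to 21.7 ± 4.65 TPM (limma adjusted p = 0.00029). Lsm3 of the same ring, the decapping enzyme Dcp2 and the nuclear exosome nuclease Exosc10 had differences of 0.45, -0.38 and -0.34 (limma adjusted p = 0.0663, 0.0723 and 0.0781). Dcp2 and Exosc10 passed downward with median-ratio scaling (0.034 and 0.033) and with quantile normalization (0.0308 and 0.0339).

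Histone variants outside the replication-dependent clusters, most of which are made from polyadenylated messages, formed the next list. It had 10 tested genes, of which 3 rose, 1 fell and 6 missed the threshold (median 0.06). H2afy2 reached 1 TPM only at 0.8 mM, and among the other 9 genes 3 rose and 1 fell. H3f3a and H3f3b both encode H3.3: H3f3b fell from 390 ± 7.94 to 286 ± 9.86 TPM (log2 difference -0.44 ± 0.05, SE, limma adjusted p = 3.3e-05), and H3f3a was at 420 ± 6.30 and 477 ± 26.0 TPM. The rise of H3f3a, 0.18 ± 0.05 (SE, limma adjusted p = 0.025), was lost without 0.2 mM replicate 1 (0.0878), 2 (0.0666) or 3 (0.0532), with median-ratio scaling (0.268) and with no variance trend (0.138). With quantile normalization H3f3a passed in the opposite direction (-0.13, limma adjusted p = 0.0419). Cenpa, the centromeric H3, rose from 3.74 ± 1.89 to 10.4 ± 1.35 TPM, and H2afj from 20.2 ± 0.317 to 26.1 ± 2.11 TPM, the latter not with quantile normalization (0.06). H2afz was at 264 ± 15.02 and 259 ± 9.37 TPM, H2afx at 7.41 ± 0.831 and 7.51 ± 1.90 TPM and H1f0, the linker histone of resting cells, at 26.1 ± 2.27 and 23.0 ± 1.94 TPM. None of these 3 passed on the deposited scale (limma adjusted p = 0.770, 0.974 and 0.194). H2afz passed downward with quantile normalization (-0.23, adjusted p = 0.0088), and H1f0 did so with median-ratio scaling (-0.26, 0.0476) and quantile normalization (-0.28, 0.0395). H2afx is also 1 of the 28 genes outside the histone set whose annotated transcripts hold the hairpin.

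Of 20 tested histone chaperones and assembly factors, 3 rose, 2 fell and 15 did not pass (median 0.08). Npm1, nucleophosmin, fell from 312 ± 29.3 to 191 ± 13.1 TPM and Nap1l1, a chaperone of H2A and H2B, from 85.7 ± 1.54 to 62.3 ± 4.05 TPM. Anp32e, which removes H2A.Z, rose from 7.96 ± 0.883 to 12.9 ± 1.65 TPM and Atrx, which deposits H3.3 with Daxx, from 10.9 ± 2.14 to 16.7 ± 1.02 TPM. The third that rose, Rbbp7, named after its values were seen, had a difference of 0.39 (limma adjusted p = 0.0461). Its call was lost in 16 of the 22 alternatives. It was lost when any of 8 libraries was left out (up to 0.184, for 0.2 mM replicate 3). Median-ratio scaling (0.103), quantile normalization (0.112) and leaving out ribosomal RNA genes (0.0886) also ended it.

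The DNA replication and S phase list had 34 tested genes, of which 4 rose, 1 fell and 29 missed the threshold (median 0.09). With each library left out in turn, 3 to 6 rose. Ccne1, Rrm1, Gins2 and Prim2 reached 1 TPM only at 0.8 mM, and among the other 30 genes 2 rose and 1 fell. The subunits of ribonucleotide reductase, which makes DNA precursors, both rose: Rrm2 stood at 2.22 ± 0.183 and 7.48 ± 1.64 TPM, and Rrm1 at 0.687 ± 0.102 and 1.90 ± 0.565 TPM. The cyclin genes Ccne1, at 0.550 ± 0.135 and 1.88 ± 0.630 TPM, and Ccna2, at 1.07 ± 0.397 and 2.47 ± 0.653 TPM, also rose, Ccna2 not without 0.2 mM replicate 3 (0.0797). Pcna, the sliding clamp of DNA polymerase, was at 30.9 ± 3.74 and 31.2 ± 2.60 TPM (log2 difference 0.01 ± 0.10, SE, limma adjusted p = 0.932). The 1 gene that fell was Mcm7, named after its values were seen, and its call was lost when any of 8 libraries was left out (up to 0.174, for 0.2 mM replicate 1).

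In the mitosis list 11 of 13 tested genes rose, 0 fell and 2 did not pass (median 0.77). Aurka, Aurkb, Hmmr and Nusap1 reached 1 TPM only at 0.8 mM, and among the other 9 genes 8 rose. Ube2c rose from 8.70 ± 1.26 to 22.9 ± 2.07 TPM, Ccnb2 from 2.43 ± 1.03 to 7.55 ± 0.683 TPM, Plk1 from 1.00 ± 0.312 to 2.38 ± 0.322 TPM and Cdk1 from 7.44 ± 2.74 to 17.9 ± 4.86 TPM. Mki67, a marker of dividing cells, stayed below the filter at 0.410 ± 0.0894 and 0.839 ± 0.223 TPM, with all libraries at 0.8 mM above those at 0.2 mM.

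**Figure D5:**
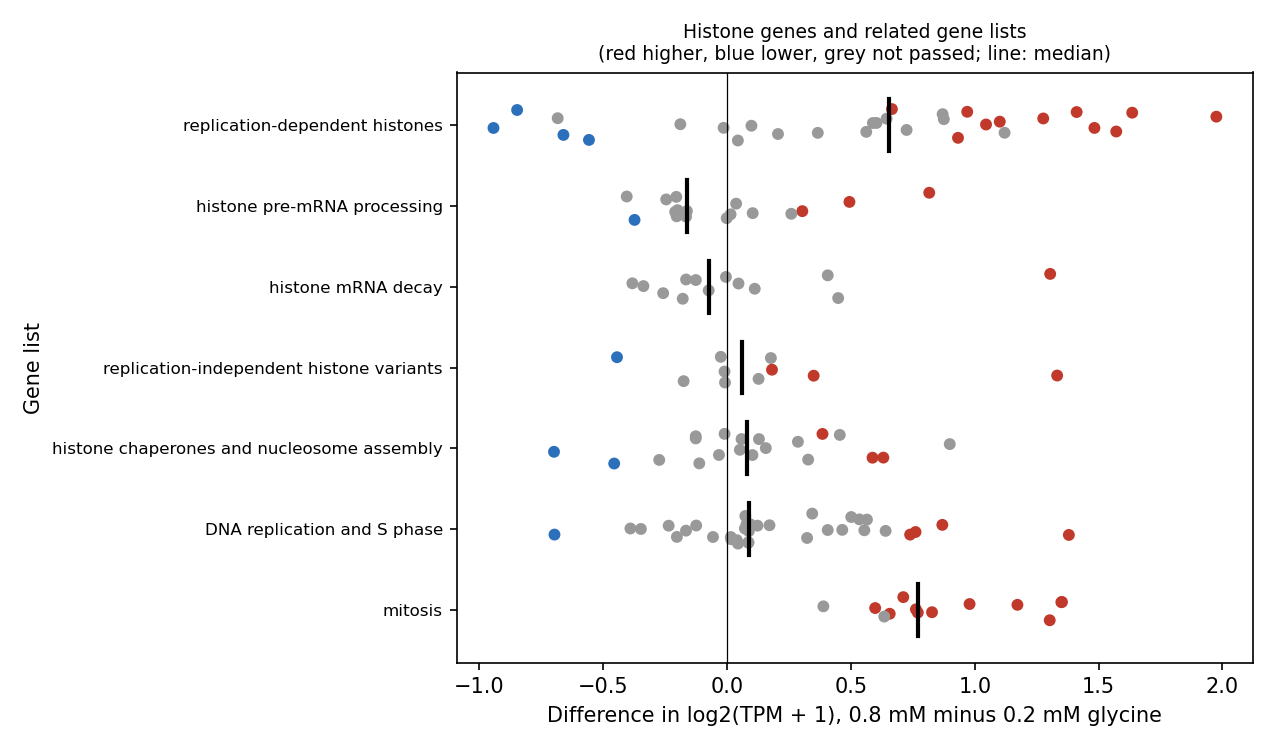
Difference in log2(TPM + 1), 0.8 mM minus 0.2 mM glycine, for the tested genes of the histone set and of 6 related lists, with 1 point per gene and the list's median as a black line. The median is 0.65 for the histone genes, 0.77 for mitosis and between -0.16 and 0.09 for the other 5 lists. Genes that reached 1 TPM only at 0.8 mM are included.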

How the data were processed

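RNA was sequenced on an Illumina HiSeq instrument from total RNA extracted with Trizol, per the labels' protocols. The submitters' processing notes name HISAT2 2.0.5, StringTie 1.3.3, DESeq2 and the mm10 build, without order or settings. No source used here gives the annotation release or strand setting. Values in it, deposited by the authors, are TPM for 53715 gene IDs in 9 libraries, with no counts, so depth is unknown and precision was taken from the spread between libraries.

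Members were matched by ID and version to GENCODE M21 (68 of 68), and their 50-base windows were compared with all other annotated transcripts. Differences were fitted with limma 3.58.1 in R 4.3.3 (lmFit, then eBayes with trend = TRUE, two-sided) on log2(TPM + 1), over all 9 libraries and 10049 genes with at least 1 TPM in at least 3 libraries, with Benjamini-Hochberg adjustment over all of them. The script was tested on simulated data. Tables and figures used pandas 2.3.3 and matplotlib 3.10.9 in Python 3.11.15. The members and gene lists were chosen with earlier results of these data known. Every member tested, and every other member reaching 1 TPM, was named, as were the 4 tested genes with the smallest p of each related list and Slbp, Npat, H2afz, H2afx, H3f3a, H3f3b, H1f0, Pcna and Mki67; Mcm7 and Rbbp7 were added. The alternatives were pseudocounts of 0.1 and 0.5, other filters, scalings and variance models, TPM without ribosomal RNA genes, each library left out, and the library number as a block.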

Additional observations from a re-analysis of the deposited data

Results flagged for a closer look

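Of the values named in the report, 4 had 1 library at 0.8 mM far from the other 5, past the 95% critical value of Dixon's test, out of 69 sets of 6 libraries examined; chance gives about 1 in 20. Hist1h2ae reached 31.4 TPM in 0.8 mM replicate 1, against 17.9 to 21.9 TPM in the others. Hist1h2ai reached 10.2 TPM in 0.8 mM replicate 4, against 0 to 3.45 TPM. Rrm1 was at 2.97 TPM in 0.8 mM replicate 1, against 1.42 to 1.87 TPM. Ube2c was at 26.8 TPM in 0.8 mM replicate 4, against 20.8 to 22.8 TPM. Without the library concerned, Hist1h2ae, Rrm1 and Ube2c still passed.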

How the results depend on the processing

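The members' counts of 11 higher and 4 lower were the same with pseudocounts of 0.1 and 0.5, median-ratio scaling, quantile normalization, no trend, robust variances, library weights and without ribosomal RNA genes. With no filter they were 9 and 3, with a mean of at least 1 TPM 9 and 4, and with a mean of at least 5 TPM, where 15 members were tested, 7 and 3; leaving out each library gave 9 to 13 and 3 to 4. Whether the library numbers pair the samples is not given in the labels. Correlations of deviations were 0.0383, 0.0023 and 0.1074 for the same number and -0.0997 to 0.0611 for different numbers. With 3 numbers per group they cannot settle this. With libraries 1 to 3 as a replicate block the counts were 10 and 4, against 9 and 4 unblocked. In that fit with the replicate block, calls numbered 0 lower in processing, 1 higher among variants, and 2 higher and 0 lower in S phase. Ccne1 (0.0627) and Rrm1 (0.0626) passed unblocked and not with the block, and H2afj with neither (0.0737 and 0.135). Unblocked, calls were 2 higher in decay, 1 higher among variants, 0 lower in S phase and 7 higher in mitosis. With a mean of at least 5 TPM, decay had 2 higher and 1 lower, S phase 1 and 0 and mitosis 4 higher; S phase had 0 lower with no filter or no trend. Median-ratio scaling gave 2 lower in decay and 2 among variants. Quantile normalization gave 1 higher and 3 lower in processing, 3 lower in decay, and 1 higher and 4 lower among variants. Leaving out each library gave 0 to 2 lower in processing, 1 to 2 higher and 0 to 1 lower in decay, and 0 to 1 lower in S phase. The ratio of summed H4 was 0.902 to 1.06 with a library left out, above 1 without 0.2 mM replicate 3 (1.06); the other sums kept their direction. H3f3a was the only named gene that passed and changed sign (-0.13 with quantile normalization). Genes near 0 that did not pass also changed sign. Leaving out each library gave -0.24 to 0.11 for Hist1h1e, -0.18 to 0.20 for Hist1h3e, -0.073 to 0.13 for Slbp, -0.049 to 0.021 for H2afz, -0.095 to 0.10 for H2afx and -0.085 to 0.077 for Pcna. With the replicate block and unblocked, Hist1h1e was at 0.064, Hist1h4h at -0.011 and Slbp at -0.076. Hist1h3e was at -0.30 (pseudocount 0.1), -0.060 (quantile) and -0.038 (weights), Slbp at -0.042 (median-ratio) and -0.053 (quantile), and Pcna at -0.070 (both scalings), -0.021 (no ribosomal RNA) and -0.0081 (weights). The cause was not tested. TPM hold no read numbers, so the counting error of genes near 1 TPM is unknown.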
